A study of Homo sapiens with 3 samples.

Results

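The genes described here are 9 genes of the NRF2 antioxidant pathway, taken by their symbols in the gene name column of the arrays: *NFE2L2*, *KEAP1*, *HMOX1*, *NQO1*, *GCLC*, *GCLM*, *TXNRD1*, *SRXN1* and *TXNIP*. All 9 were found among the 27274 gene names on the arrays, each with 1 probe, and 8 of them gave a signal well above background. They were measured in HepG2 cells, an established line from a human hepatocellular carcinoma with wild-type p53, on 1-color Agilent arrays. There was 1 array each for control cells (0 μM etoposide, named untreated in the labels and DMSO in the paper), cells given 10 μM etoposide (the low dose) and cells given 100 μM (the high dose), all harvested at 30 h. Etoposide is a topoisomerase II poison that breaks both strands of DNA, and the study chose the low dose as one that mainly leads to senescence and the high dose as one that mainly leads to apoptosis. Each condition rests on a single array, so differences carry no replicate error and no p-values. The errors printed are spot-to-spot errors within arrays, which cover neither cultures nor RNA preparations.

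NRF2, the product of *NFE2L2*, is a transcription factor that binds antioxidant response elements together with small MAF proteins. Under resting conditions KEAP1 holds NRF2 in the cytoplasm and hands it to a CUL3 ubiquitin ligase for degradation, so NRF2 is controlled largely at the level of the protein. When electrophiles or oxidants modify KEAP1, NRF2 accumulates and raises the transcription of enzymes that degrade heme, reduce quinones, make glutathione and keep the thioredoxin system reduced. The liver relies on these enzymes to handle drugs and reactive metabolites. TXNIP acts in the opposite sense to the thioredoxin enzymes, since it binds thioredoxin and blocks it, and its gene is known mainly as a target of glucose-sensing factors.

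Some sequences behind these measurements are given first. The probe of *NFE2L2* (NM_006164; hg18, chr2:177803939-177803998, minus strand) is shown whole because it gave no signal well above background. It holds 25% G and C, and only 0.756% of all probes hold less.

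NFE2L2 probe: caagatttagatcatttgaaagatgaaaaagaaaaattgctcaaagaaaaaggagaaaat

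Promoters were searched for the core of the antioxidant response element, TGACNNNGC, on both strands. The windows were those of RefSeq on GRCh38.p14, from 250 bases before to 50 bases after each annotated start, and 8 of the 9 genes had 1 or more windows there, 12 in all. Of 35116 windows of all genes, 13.3% held the core. Matches were found for *KEAP1*, *GCLM* and *TXNRD1*. Those that lie wholly before the start are shown with 16 bases on each side, in the direction of the gene and with the match in capitals. The *KEAP1* matches end 45 and 22 bases before the start (chr19:10502801-10502841 and chr19:10502778-10502818, minus strand), the *GCLM* match 25 bases before it (chr1:93909440-93909480, minus strand), and the *TXNRD1* matches 90 and 93 bases before 2 different starts (chr12:104215664-104215704 and chr12:104286914-104286954, plus strand).

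KEAP1, first match: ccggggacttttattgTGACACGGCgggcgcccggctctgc
KEAP1, second match: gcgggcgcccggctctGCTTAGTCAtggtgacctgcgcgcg
GCLM: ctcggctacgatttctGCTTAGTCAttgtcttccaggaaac
TXNRD1, first start: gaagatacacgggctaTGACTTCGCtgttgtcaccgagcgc
TXNRD1, second start: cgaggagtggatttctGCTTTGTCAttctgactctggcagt

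The second *KEAP1* match and the *GCLM* match were the same letters, GCTTAGTCA, which is the core read on the other strand. The first window of *TXNRD1* held another match, GCTCCGTCA, across the start itself. No match lay in the windows of *NFE2L2*, *NQO1*, *GCLC*, *SRXN1* or *TXNIP*, which says only that these letters are absent from this short window.

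Each array held 34127 probes, of which 19836 to 20150 were well above background by the scanner software, and no spot was saturated. Signals were put on the log2 scale after division by the 75th percentile of the array, a signal of 514 in control cells, 536 at 10 μM and 432 at 100 μM. All log2 changes and fold changes below are on that scale unless another is named, while signals are printed as deposited, before scaling. The p53 targets *CDKN1A* and *MDM2*, which served as a check of the labels, were 7.94-fold and 7.04-fold higher at 10 μM, and 7.07-fold and 3.19-fold higher at 100 μM, than in control cells. The dimmer probes of *MDM2* read 4.88-fold and 3.57-fold at 10 μM, and 2.77-fold and 2.20-fold at 100 μM. All 8 hepatocyte and HepG2 markers were well above background on every array, with *ALB* and *AFP* among them, and their summed signal was 234425 in control cells, 255488 at 10 μM and 255863 at 100 μM. The dimmest of the 8 on each array read 50.7, 30.4 and 53.7, so the sums reflect mainly the brighter genes. Of the other markers, all 4 leukocyte genes were well above background, with summed signals of 1620, 2050 and 2841. The brightest leukocyte gene on each array gave 796, 1184 and 1847 of these sums. The 3 endothelial genes summed to 530, 363 and 354, and the 4 fibroblast genes to 110, 84.0 and 39.0, with *COL1A1*, *COL1A2* and *COL3A1* well above background on no array. The cells were of an established line, and the part of other cells in the results was not tested. As in any bulk sample, fewer cells of a kind and less RNA per cell cannot be told apart.

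Among the 8 genes with a value, *HMOX1* and *TXNIP* had higher signals at both doses than in control cells, and *GCLC*, *TXNRD1*, *SRXN1* and *NQO1* had lower values at both. *GCLM* was lower at the low dose and higher at the high dose, and *KEAP1* was the reverse. The antioxidant genes thus did not move one way together. Before any scaling, the signal ran from high to low in the order control, low dose, high dose for *NQO1*, *GCLC*, *TXNRD1* and *SRXN1*, and in the opposite order for *HMOX1* only.

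**Figure D1:**
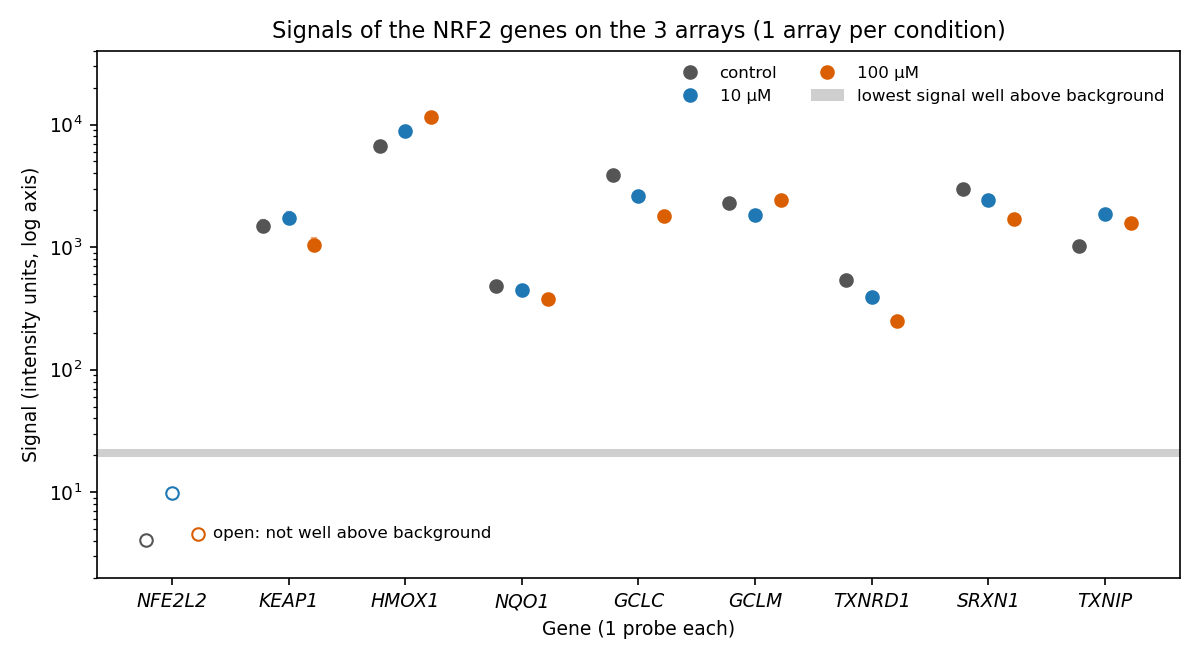
Signal of the probe of each gene on the 3 arrays (vertical axis, intensity units as deposited, log scale), with 1 point per array for control cells, 10 μM and 100 μM etoposide. Filled points are well above background and open points are not, the gray band spans the lowest signals well above background (19.5 to 22.7), and vertical bars, mostly hidden by the points, span the 10 spots of *KEAP1* and *HMOX1*. *NFE2L2* lies below the band on all 3 arrays, and *HMOX1* steps upward with dose.

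*NFE2L2* gave no usable level. Its signal was 4.08 in control cells, 9.91 at 10 μM and 4.53 at 100 μM, and none of these was well above background, so no fold change is given. The lowest signals well above background were 19.5, 22.7 and 21.6 on these arrays. Among 313 probes with a G and C content within 1 base of that of this probe, 43.1%, 41.2% and 37.7% were well above background on the 3 arrays, compared with 58.9%, 58.1% and 59.0% of all probes. Runs of 16 of its bases also occurred in 2 probes of other genes. The arrays therefore left the mRNA of NRF2 itself unmeasured, which is not the same as an absent transcript.

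*KEAP1* (NM_203500; hg18, chr19:10458262-10458321, minus strand) encodes the inhibitor of NRF2, and its probe was printed 10 times on each array. The mean signal was 1488 in control cells, with spots from 1377 to 1608. It was 1743 at 10 μM (1644 to 1845) and 1044 at 100 μM (1003 to 1138). The spots of the 3 arrays did not overlap before scaling, with the low dose highest and the high dose lowest. After scaling, *KEAP1* was 1.12-fold the control at the low dose (log2 change 0.17, standard error over spots 0.024) and 0.835-fold at the high dose (-0.26, 0.026). The low dose was 1.35-fold the high dose (0.43, 0.023). None of these differences reached 1.5-fold with the main scaling, but the one between the doses ran from 1.28-fold to 1.67-fold over the ways of scaling and passed 1.5-fold with no scaling, median scaling and spike-in scaling.

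*HMOX1* (NM_002133; hg18, chr22:34120122-34120181, plus strand) encodes the inducible heme oxygenase, which breaks heme down to biliverdin, iron and carbon monoxide. Its probe was also printed 10 times. The mean signal was 6707 in control cells (6500 to 6874 over the spots), 8899 at 10 μM (8616 to 9313) and 11438 at 100 μM (11007 to 12055). No spot of one array overlapped those of another, and the order followed the dose. After scaling, *HMOX1* was 1.27-fold the control at the low dose (log2 change 0.35, standard error over spots 0.012) and 2.03-fold at the high dose (1.02, 0.014), and the low dose was 0.627-fold the high dose (-0.67, 0.016).

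*HMOX1* at the high dose was the only one of the 8 genes past 2-fold in any comparison. At the high dose over control, 6.74% of the 16976 genes with a value were higher by more than 2-fold and 3.63% lower, and counts of 1 of 8 and 0 of 8 are too small to stand apart from those shares. The change sat at the threshold itself, and it depended on the scaling. It was 1.71-fold with no scaling, 1.66-fold with median scaling, 1.80-fold with spike-in scaling, 1.93-fold with normexp background correction and 2.11-fold with the percentile taken over all spots. The direction was the same in every one of these. Over the 12045 genes compared, those whose pair of changes at both doses lay closest to that of *HMOX1* were *PPP1R3G* (1.24-fold and 2.03-fold), *ABCC3* (1.29-fold and just under 2-fold) and *SLC39A4* (1.30-fold and 2.04-fold), at distances of 0.0327, 0.0334 and 0.0340 on the log2 scale, as a description over 3 arrays. *ABCC3*, which encodes a drug efflux pump of the hepatocyte, was also among the listed NRF2 targets. Its other probe read 1.41-fold and 1.88-fold. Each distance was smaller than the spot-to-spot SDs of that gene's changes, which for *ABCC3* were 0.067 and 0.072.

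*GCLC* (NM_001498; hg18, chr6:53470156-53470215, minus strand) and *GCLM* encode the catalytic and the modifier subunit of glutamate cysteine ligase, which carries out the first and rate-limiting step of glutathione synthesis. The signal of *GCLC* was 3899 in control cells, 2601 at 10 μM and 1806 at 100 μM. It was highest in control cells and lowest at the high dose, and the change was 0.639-fold at the low dose (log2 change -0.65, spot-to-spot SD 0.065) and 0.551-fold at the high dose (-0.86, 0.071). *GCLC* thus passed 1.5-fold downward at both doses, at the low dose by so little that it did not with no scaling (-0.58). With no scaling, median scaling or spike-in scaling it passed 2-fold downward at the high dose.

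The signal of *GCLM* (NM_002061; hg18, chr1:94125398-94125457, minus strand) was 2311 in control cells, 1830 at 10 μM and 2425 at 100 μM. The low dose was the lowest of the 3, and the other two lay close together before scaling. *GCLM* was 0.759-fold the control at the low dose (log2 change -0.40, spot-to-spot SD 0.064) and 1.25-fold at the high dose (0.32, 0.070), and the latter was between 1.02-fold and 1.30-fold over the ways of scaling. The low dose was 0.608-fold the high dose (-0.72, 0.067). With the main scaling the 2 subunits of 1 enzyme thus differed in direction at the high dose. With median scaling the log2 change of *GCLM* there was 0.030, smaller than its spot-to-spot SD. Runs of 16 bases of the *GCLM* probe also occurred in 6 probes of 6 other genes. These were all well above background, with signals of 1417 to 120274 in control cells, and their log2 changes ran from 0.32 to 1.62 at the high dose and from -0.37 to 1.52 at the low dose. Their part in the signal of the *GCLM* probe was not tested.

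*TXNRD1* (NM_003330; hg18, chr12:103257079-103257138, plus strand) encodes the cytosolic thioredoxin reductase, which uses NADPH to keep thioredoxin reduced. Its signal was 544 in control cells, 390 at 10 μM and 247 at 100 μM, in the same order as *GCLC*. The change was 0.688-fold at the low dose (log2 change -0.54, spot-to-spot SD 0.087) and 0.540-fold at the high dose (-0.89, 0.094). The second value passed 1.5-fold downward, and it passed 2-fold with no scaling, median scaling or spike-in scaling.

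*SRXN1* (NM_080725; hg18, chr20:575563-575622, minus strand) encodes sulfiredoxin, which repairs overoxidized peroxiredoxins. The signal was 2968 in control cells, 2406 at 10 μM and 1709 at 100 μM, again highest in control cells. The change was 0.777-fold at the low dose (log2 change -0.36, spot-to-spot SD 0.065) and 0.685-fold at the high dose (-0.55, 0.069), so *SRXN1* stayed within 1.5-fold on this scale, and at the high dose it reached down to 0.560-fold over the ways of scaling.

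*NQO1* (NM_000903; hg18, chr16:68301775-68301834, minus strand) encodes a quinone reductase that is widely used as a readout of NRF2. Its signal was 477 in control cells, 443 at 10 μM and 378 at 100 μM. After scaling it was 0.891-fold the control at the low dose (log2 change -0.17, spot-to-spot SD 0.079) and 0.942-fold at the high dose (-0.086, 0.087). The second value was no larger than its spot-to-spot SD, and the first about 2.1 times its SD. With the main scaling *NQO1* was at the high dose the member nearest to control, whereas *GCLM* was nearer with no scaling, median scaling and spike-in scaling.

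*TXNIP* (NM_006472; hg18, chr1:144153804-144153863, plus strand) encodes the thioredoxin-binding inhibitor named above. The signal was 1019 in control cells, 1855 at 10 μM and 1578 at 100 μM. Both treated arrays lay above the control array, by 1.74-fold at the low dose (log2 change 0.80, spot-to-spot SD 0.075) and 1.84-fold at the high dose (0.88, 0.079). *TXNIP* was the only one of the 8 genes past 1.5-fold upward at the low dose. The doses themselves differed by little, with the low dose 0.947-fold the high dose (-0.078, 0.066), and that sign was the opposite with no scaling, median scaling or spike-in scaling, as it was for *NQO1* (0.945-fold in the main scaling).

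**Figure D2:**
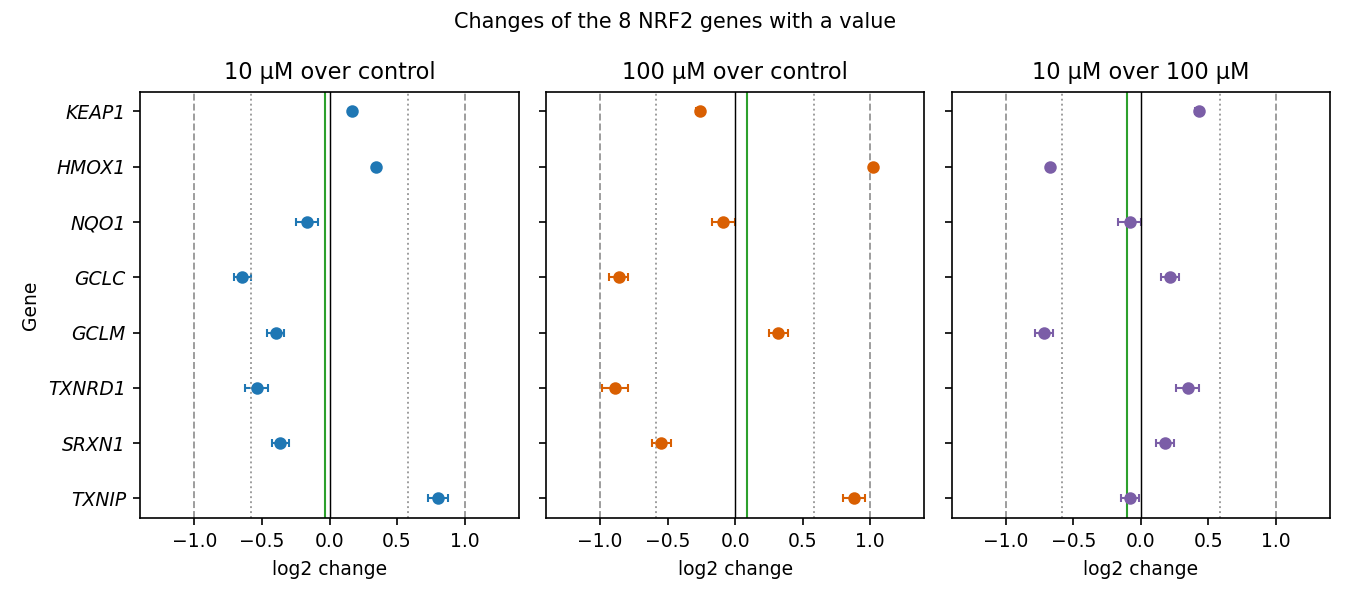
Log2 change of each of the 8 genes with a value (horizontal axis) in the 3 comparisons, after scaling to the 75th percentile. Bars are spot-to-spot errors within arrays, dashed lines mark 2-fold, dotted lines 1.5-fold and the green line the median of all genes; *HMOX1* at 100 μM is the single point past a dashed line, and *GCLC* and *TXNRD1* lie farthest to the left at both doses.

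At the low dose over control, the 8 genes had a median log2 change of -0.27, with 3 above 0 and 5 below, compared with a median of -0.035 over 16714 genes, of which 45.2% were above 0. None of the 8 was higher or lower by more than 2-fold, against 3.37% and 1.57% of all genes. By more than 1.5-fold, 1 gene (*TXNIP*) was higher and 1 (*GCLC*) lower, against 9.05% and 6.45% of all genes. *GCLC* ranked low in that distribution, with 5.1% of genes below it, and 5.3% of genes lay above *TXNIP*.

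At the high dose over control, the median of the 8 genes was -0.17, with 3 above 0 and 5 below. The median over all genes was 0.088, and 56.9% of them were above 0. By more than 1.5-fold, 2 genes (*HMOX1* and *TXNIP*) were higher and 2 (*GCLC* and *TXNRD1*) lower, against 18.4% and 9.68% of all genes. *HMOX1* had 6.5% of genes above it and *TXNIP* 9.1%, whereas 4.9% of genes lay below *GCLC* and 4.6% below *TXNRD1*.

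Between the doses, the median of the 8 genes for the low over the high dose was 0.052, with 4 above 0 and 4 below. The median over 16790 genes was -0.10, and 39.7% of them were above 0. None of the 8 genes passed 2-fold, against 3.64% of genes higher and 3.94% lower. None was more than 1.5-fold higher, against 7.49% of genes, and 2 (*HMOX1* and *GCLM*) were more than 1.5-fold lower, against 14.2%, and neither passed 1.5-fold with no scaling, median scaling or spike-in scaling. These comparisons share arrays, so their values are not independent.

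Apart from quantile normalization, each scaling moved all values of an array by the same amount. Relative to the 75th percentile, leaving the arrays unscaled shifted the median of genes measured on both arrays by 0.061 at the low dose over control, by -0.25 at the high dose over control and by 0.31 between the doses. Of the genes past 2-fold at the high dose over control, 65.0% were higher with the main scaling, compared with 37.2% with no scaling, 33.2% with median scaling, 49.8% with quantile normalization, 45.1% with spike-in scaling, 47.6% with normexp, 66.3% with the percentile over detected probes and 70.1% with that over all spots. Between the doses the share was 48.0%, compared with 77.8%, 74.6%, 65.5%, 71.2%, 72.6%, 45.6% and 40.6% in the same order. Over the 7 ways of scaling, *HMOX1* at the high dose ran from 0.73 to 1.08, *TXNIP* from 0.59 to 0.94, *GCLC* from -1.15 to -0.80 and *TXNRD1* from -1.18 to -0.83 on the log2 scale. The order of the 8 genes within a comparison is unchanged by a shift of a whole array, and so is the distance between *HMOX1* and *GCLC*.

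**Figure D3:**
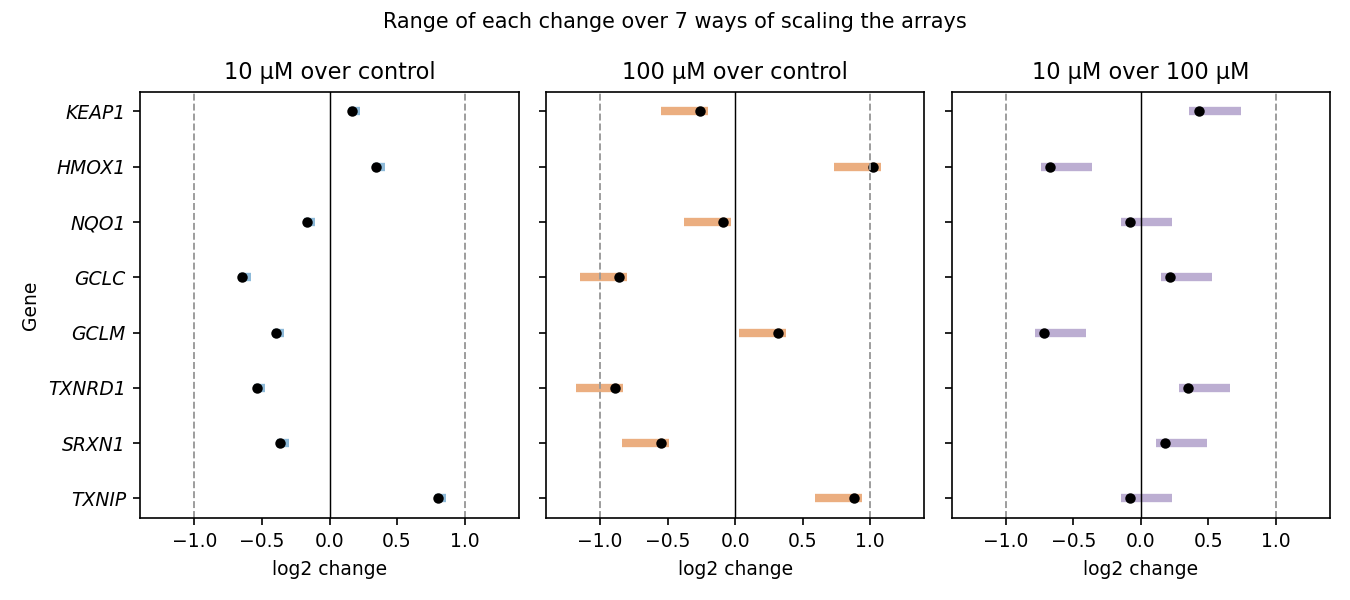
Range of the log2 change of each gene (horizontal axis) over 7 ways of scaling the arrays, in the 3 comparisons. Black points are the main scaling, colored bars span the lowest to the highest value and dashed lines mark 2-fold; at 100 μM the bars of *HMOX1*, *GCLC* and *TXNRD1* each cross a dashed line, and between the doses those of *NQO1* and *TXNIP* cross 0.

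The other genes of the pathway were taken from 7 lists by function, of which 98 of 101 listed genes were on the arrays. With a value for 91 of them at the low dose, 1 was higher and 1 lower by more than 2-fold, against 3.37% and 1.57% of all genes, and 4 were higher and 7 lower by more than 1.5-fold, against 9.05% and 6.45%. At the high dose 92 had a value, of which 3 were higher and 2 lower by more than 2-fold, against 6.74% and 3.63% of all genes, and 13 were higher and 6 lower by more than 1.5-fold, against 18.4% and 9.68%. For the low over the high dose the counts were 3 and 2 by more than 2-fold, against 3.64% and 3.94%, and 4 and 12 by more than 1.5-fold, against 7.49% and 14.2%. The medians of -0.074, 0.042 and -0.076 compare with -0.035, 0.088 and -0.10 over all genes.

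In glutathione synthesis and use, 22 genes had a value at the low dose, with 6 above 0, 16 below and a median of -0.20. Among all genes 54.4% were below 0 in that comparison, with a median of -0.035. At the high dose 23 had a value, with 13 above 0, 10 below and a median of 0.14. Among all genes 56.9% were above 0 there, with a median of 0.088. The lowest gene of the glutathione list was *SLC7A11*, which imports the cystine from which glutathione is built. Its signal was 4579 in control cells, 1792 at 10 μM and 584 at 100 μM, or 0.375-fold and 0.152-fold the control after scaling. It was the only gene of this list past 2-fold downward against control at either dose, and it was in the same order over the arrays as *GCLC*. Its partner subunit *SLC3A2* (0.741-fold and 0.546-fold) and glutathione reductase, *GSR* (0.696-fold and 0.567-fold), both picked after their values were seen, were also lower. Glutathione synthetase, *GSS*, picked in the same way, was 1.19-fold and 1.10-fold the control. The highest of the genes measured on all 3 arrays was *GPX1*, a glutathione peroxidase, at 1.97-fold and 1.78-fold, with 1.99-fold and 1.74-fold by its other probe. *GSTP1*, a glutathione transferase also picked after its value was seen, was dim, with signals of 15.1, 16.2 and 39.6 on the 3 arrays. It was well above background only at the high dose, where the lowest such signal was 21.6. With the main scaling it was at least 2.41-fold higher there than in control cells. With median scaling or normexp, no pathway gene was more than 2-fold higher at the high dose.

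In the thioredoxin system, none of 13 genes passed 1.5-fold at the low dose. *MSRB2*, a methionine sulfoxide reductase, was 2.12-fold higher at the high dose by the brighter of its 2 probes, while the other was not well above background on any array. *TXN*, thioredoxin itself, was 0.861-fold and 0.800-fold the control, and the mitochondrial reductase *TXNRD2* was 0.852-fold and 1.12-fold. None of the peroxiredoxins passed 1.5-fold, with *PRDX1* at 0.823-fold and 0.879-fold and *PRDX3* at 0.862-fold and 0.697-fold.

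In NADPH supply, 6 of 7 genes were below 0 at the low dose, against 54.4% of all genes. *IDH1*, the cytosolic isocitrate dehydrogenase, was 0.522-fold the control there and 0.875-fold at the high dose. *MTHFD2*, a mitochondrial folate enzyme, had a signal of 5937 in control cells, 4361 at 10 μM and 1064 at 100 μM, or 0.704-fold and 0.213-fold. *MTHFD2* and *SLC7A11* are also well known as targets of the stress factor ATF4.

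Among 26 further targets in detoxification, heme and iron handling, the heme transporter *SLC48A1* was the only gene past 2-fold at the low dose. Its signal was 782 in control cells, 2856 at 10 μM and 904 at 100 μM, so that it was 3.50-fold and 1.37-fold the control. The other probe of *SLC48A1* read 3.22-fold and 1.24-fold. This differed from *HMOX1*, which acts on the same substrate and was highest at the high dose. The constitutive heme oxygenase, *HMOX2*, was 1.20-fold and 1.49-fold the control. *AKR1B10*, an aldo-keto reductase, was 0.542-fold and 0.700-fold, with 0.546-fold and 0.687-fold by its other probe, and *PIR* was 0.712-fold and 0.619-fold. *NQO2*, the relative of *NQO1*, was 0.997-fold and 0.934-fold.

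Of the regulators and partners of NRF2, *MAFK*, a small MAF protein with which NRF2 pairs, was the only gene past 1.5-fold against control. Its signal was 337 in control cells, 569 at 10 μM and 588 at 100 μM, or 1.62-fold and 2.07-fold. The repressor *BACH1* was 0.765-fold and 0.801-fold the control. The relatives of NRF2 stayed within 1.5-fold of control, with *NFE2L1* at 0.823-fold and 1.04-fold and *NFE2L3* at 0.850-fold and 0.689-fold. At the high dose *NFE2L3* was farther from control than *BACH1*. Among superoxide and peroxide enzymes, catalase, *CAT*, was 0.579-fold at the low dose and 0.960-fold at the high dose.

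Of the arrestin-domain relatives of *TXNIP*, *ARRDC4* is the one that shares its control by glucose-sensing factors. Its signal was dim, at 64.1 in control cells, 70.9 at 10 μM and 98.5 at 100 μM, or 1.06-fold and 1.83-fold the control. The log2 changes were 0.085 and 0.87, each with a spot-to-spot SD of 0.20. *ARRDC4* thus stood with *TXNIP* at the high dose but not at the low dose. The E-box CACGTG, searched on both strands in the same RefSeq windows, was found in 7.26% of all windows. It was in the window of *ARRDC4*, 204 bases before the start, and in no window of *TXNIP*. For *TXNIP* this says only that these exact letters are absent from its short windows, and other forms of the site were not searched. *ARRDC2* was 1.36-fold and 1.28-fold the control and *ARRDC3* was 0.746-fold and 0.854-fold.

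**Figure D4:**
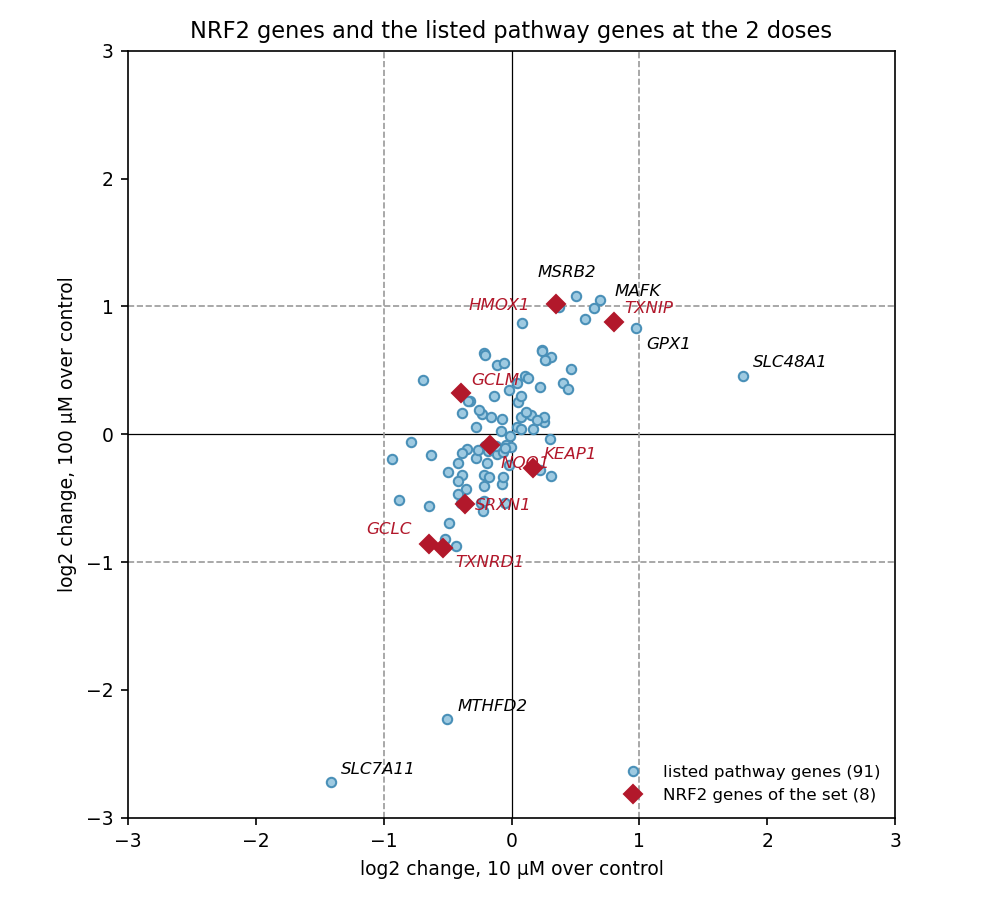
Log2 change at 10 μM (horizontal axis) and at 100 μM (vertical axis) etoposide over control for the 8 NRF2 genes (red diamonds) and the 91 listed pathway genes with values measured on all arrays compared (blue circles). Both axes share the control array; dashed lines mark 2-fold. *SLC7A11* and *MTHFD2* lie far below the rest and *SLC48A1* far to the right, while the 8 genes stay within 1.02 of 0 on both axes.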

How the data were processed

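Total RNA was labeled with Cy3 and hybridized to 1 Agilent array per condition, with all 3 arrays on 1 slide. The authors deposited the Feature Extraction (version 10.7.3.1) intensity of each spot after background subtraction. The series table repeated that intensity at each of the 44495 spots, unscaled between arrays. From it, log2 values were computed, outlier spots left out, spots of a probe averaged, and the 75th percentile over probes subtracted. A gene was its brightest probe. The brighter condition had to be well above background for a fold change, and a dimmer signal below the floor was raised to it, which gives a bound. The spot-to-spot SD came from the 50 repeated probes nearest in signal, or from a probe's own 10 spots.

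No test is possible with 1 array per condition. The members and lists were chosen with earlier results of these data known. Named were all members, the highest and lowest gene of each list at each dose, close relatives of members, the 3 genes nearest to *HMOX1* and 2 p53 targets. Probe positions are those of the files (hg18). Exon and UTR annotation of that build was not used here. *TXNRD3* was matched as *TXNRD3IT1* and *WTX* as *FAM123B*. A gene that this rule selects is not reported here. The steps were tested on simulated data. Calculations used limma 3.58.1 under R 4.3.3, and numpy 2.4.6, scipy 1.17.1 and pandas 2.3.3 under Python 3.11.15.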

Additional observations from a re-analysis of the deposited data

How the results depend on the processing

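No paired analysis was possible because no condition had more than 1 array, and slide was no block because all 3 arrays lay on 1 slide. Of the 24 log2 changes of single members, 22 kept their sign under all 11 alternatives tried for them, and the other 2 (*NQO1* and *TXNIP* between the doses) changed it with no scaling, median scaling and spike-in scaling. Of the 264 values these gave, 195 lay within the spot-to-spot SD of the reported value and 69 did not. Counts and medians not named below stayed within 1.5 times the count or within the spot-to-spot SD, and the cause of a shift was not tested where the setting does not itself name it. With 1 array per condition there is no estimate of the spread between cultures, and *NFE2L2* had no signal well above background.

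For members past 2-fold at the low dose over control, the count of 0 higher became 1 with no filter on dim probes (*NFE2L2*, whose signal is not well above background). It also became 1 at a 1.5-fold threshold, and 0 lower became 1 at 1.5-fold. At the high dose over control, 1 higher became 0 with no scaling, median scaling, spike-in scaling, normexp and a 3-fold threshold, and 2 at 1.5-fold, while 0 lower became 2 with no scaling, median scaling, spike-in scaling and at 1.5-fold. Between the doses, 0 lower became 2 at 1.5-fold. For members past 1.5-fold, 1 higher at the low dose became 2 with no filter and 1 lower became 0 with no scaling. Between the doses, 0 higher became 2 with no scaling and median scaling and 1 with spike-in scaling and with no filter, and 2 lower became 0 with no scaling, median scaling and spike-in scaling.

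The median of the members became -0.17 with no filter at the low dose (main -0.27). At the high dose (main -0.17) it became -0.42 with no scaling, -0.46 with median scaling, -0.34 with spike-in scaling and -0.086 with no filter. Between the doses (main 0.052) it became 0.36, 0.32 and 0.28 with those 3 scalings, -0.016 with the percentile over all spots, where its sign changed, and 0.18 with no filter.

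For the other pathway genes at the low dose, 1 higher became 2 with no scaling, quantile normalization, spike-in scaling and no filter, and 4 at 1.5-fold. The 1 lower became 7 at 1.5-fold and 0 at 3-fold. With the high dose, 3 higher became 1 with no scaling and with spike-in scaling, 0 with median scaling, normexp and at 3-fold, 5 with the percentile taken over all spots and over probes detected on each of the arrays, 7 with no filter and 13 at 1.5-fold. The 2 lower became 4 with no scaling and median scaling, and 6 at 1.5-fold. Between the doses, 3 higher became 1 at 3-fold, and 2 lower became 0 with no scaling, median scaling, spike-in scaling, normexp and at 3-fold, 1 with quantile normalization and with only probes detected on each of the arrays, 4 with no filter and 12 at 1.5-fold.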
